A study of Mus musculus with 4 samples.

Results

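Interferon response and antigen presentation genes were examined in mouse embryonic fibroblasts depleted of eIF1A, and their steady-state RNA did not move as 1 block. Usp18, the OAS genes, Isg15, Bst2 and the classical MHC class I genes H2-D1 and H2-K1 were higher in the knockdown. Ly6e, Ifitm2, Stat3 and Lgals9 were lower. Of the higher genes, Isg15, H2-K1, Oas3 and Oasl2 each lost their call when a certain library was left out. Members were every gene of the deposited table whose symbol names an interferon-regulated or interferon-signalling family (the Ifi, Irf, Isg, Oas, Gbp and Irgm symbols, Usp18, Dhx58, Bst2, Ly6e and similar single genes), an interferon receptor, Janus kinase or STAT, a Toll-like receptor or its adaptors, or an MHC or peptide-loading gene (H2, Tap and Tapbp symbols). They numbered 51 of the 4878 genes in the table. The rule reads gene symbols only. It took in 3 genes by the letters of their symbol alone, Isg20l2, Irf2bp1 and Irf2bpl, which are kept apart here.

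The RNA came from primary fibroblasts at passages 5 to 8, transfected by Lipofectamine RNAimax either with siRNA labelled Si-eIF1A (X+18) (2 libraries, knockdown 1 and 2) or with Si-Negative control siRNA (2 libraries, control 1 and 2). eIF1A takes part in translation initiation, where it keeps the scanning ribosome competent to find the start codon, and the title of the series concerns cancer-associated eIF1A mutants and the scanning of cell cycle genes. The labels give no mouse strain and do not say if replicate libraries were grown as separate cultures, so p-values measure the spread between these libraries, which may be technical. Bulk MARS-seq, which counts the 3′ ends of polyadenylated transcripts, gave 2152331 and 2352111 reads in the knockdown libraries and 2182825 and 2595625 reads in the control libraries over the genes of the table. Within both pairs the libraries differed by more than sampling noise, with a chi-square of 13.8 per degree of freedom in the knockdown and 16.5 in the control. The table holds no gene at 0 in any library, so genes without reads in some library could not be examined, and the targeted transcripts were not analysed here, which leaves the depth of the knockdown unchecked. Of 16 fibroblast markers listed, 7 were in the table, among them Vim, Sparc and Col6a1. Their summed normalised counts were 15032 and 16616 in the knockdown libraries and 31598 and 27906 in the control libraries. In the limma test described below, 6 of the 7 were called lower in the knockdown, as were 21.6% of all genes tested. Of 21 macrophage and leukocyte markers only Cd74 was in the table, and none of the 8 endothelial or the 8 epithelial markers was. In bulk RNA, fewer cells that make a transcript and less of it per cell cannot be told apart.

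As background, type I interferon binds the receptor chains IFNAR1 and IFNAR2, whose Janus kinases TYK2 and JAK1 phosphorylate STAT transcription factors, and STAT2 acts with IRF9 to switch on genes that carry an interferon-stimulated response element in their promoters. Interferon gamma acts through its own receptor, JAK1 and JAK2 and leads to binding at the gamma-activated site. Fibroblasts make type I interferon when sensors of foreign nucleic acid signal through adaptors such as MAVS to IRF3, and a low tonic signal keeps many interferon-stimulated genes and the MHC class I pathway at a basal level without infection. Among the genes of this pathway not analysed here were Jak1, B2m, Tap2, Irf7, Ddx58 and Ifih1.

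Promoter sequences are shown for members whose results are described below, because the response element is the shared sequence feature of the interferon-stimulated genes. RefSeq promoter windows (build GRCm38.p6, 250 bases before to 50 after each start site) were available for 41 of the 51 members. The core of the response element, GAAANNGAAA on either strand, was found in 16 of these 41 members (39.0%). It was found in 132 of 3942 genes of the table with a window (3.35%) and in 3.44% of all 32851 windows. A gene with several windows was counted as holding a motif if any of them matched, so shares of genes and of windows differ in unit. The core of the gamma-activated site, TTCNNNGAA, which reads the same on both strands, was found in 13 of the 41 members (31.7%), against 300 of the 3942 genes of the table (7.61%) and 8.30% of all windows. Matches to the first motif overlapped each other in several windows (Isg15 had 3 in a single run), and matches are letters only, not sites of binding. Among members with a window, the response element was found in 6 of 10 that were higher in the knockdown, in 3 of 5 that were lower and in 7 of 25 that did not pass the test, so its presence did not separate the directions. The stretches below each hold 70 bases, 5′ to 3′ on the strand of the gene, before the RefSeq start site and outside exons that GENCODE M21 annotates on that strand, with the response element in capitals (where it lies on the opposite strand, its reverse complement is in capitals). The first 6 belong to members that were higher in the knockdown, Ifitm2 and Lgals9 to members that were lower, and Igtp and Irgm2 to members that did not pass. The Irgm2 stretch lies in an intron of a longer GENCODE transcript of that gene.
Isg15 (chr4:156200851-156200920, minus strand): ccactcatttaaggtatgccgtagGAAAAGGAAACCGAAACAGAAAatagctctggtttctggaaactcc
Oas1a (chr5:120907526-120907595, minus strand): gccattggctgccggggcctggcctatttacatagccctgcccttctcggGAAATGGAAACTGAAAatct
Oas3 (chr5:120777695-120777764, minus strand): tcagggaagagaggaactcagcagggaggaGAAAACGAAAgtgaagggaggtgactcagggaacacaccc
Bst2 (chr8:71537560-71537629, minus strand): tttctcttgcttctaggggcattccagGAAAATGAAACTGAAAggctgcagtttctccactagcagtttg
Ifit1 (chr19:34640764-34640833, plus strand): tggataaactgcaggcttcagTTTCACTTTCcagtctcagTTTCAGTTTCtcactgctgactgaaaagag
Gbp3 (chr3:142559956-142560025, plus strand): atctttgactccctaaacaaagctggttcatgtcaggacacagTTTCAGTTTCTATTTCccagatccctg
Ifitm2 (chr7:140955988-140956057, minus strand): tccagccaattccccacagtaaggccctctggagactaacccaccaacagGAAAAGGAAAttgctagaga
Lgals9 (chr11:78984947-78985016, minus strand): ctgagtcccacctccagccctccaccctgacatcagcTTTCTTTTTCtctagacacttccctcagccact
Igtp (chr11:58199486-58199555, plus strand): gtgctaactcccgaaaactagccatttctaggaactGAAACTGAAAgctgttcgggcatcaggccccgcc
Irgm2 (chr11:58214883-58214952, plus strand): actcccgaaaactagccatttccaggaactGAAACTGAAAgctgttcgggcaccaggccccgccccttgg

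Values are the deposited normalised counts, and each fold change is on the log2(value + 1) scale with its standard error and a limma p adjusted by the Benjamini-Hochberg method over the 4605 genes whose mean value reached 5. With the threshold at an adjusted p of 0.05, 12 of the 50 members tested were higher in the knockdown (24%), against 15.9% of all genes tested, and 6 were lower (12%), against 21.6% of all genes. The remaining 32 members did not pass. The 3 tested members with a control mean under 5 were Gbp3, Erap1 and Ifi204. They reached the filter only through their knockdown counts, and of them only Gbp3 was called. The median log2 fold change was 0.36 over the members tested and -0.01 over all genes, and 34 of the 50 members had a positive value. Knockdown and control libraries did not overlap in 34 of the 50 members (68%), which is the same share as among all genes (67.8%). None of the 18 called members had overlapping groups, which is no separate evidence, because the calls rest on the same 4 libraries. Without the 3 members matched by symbol alone, 11 of 47 were higher and 5 lower. The split of calls depended on how libraries were scaled: after scaling all libraries to equal totals, 23 members were higher and 4 lower, but all genes then shifted as well (median 0.71 over the members and 0.34 over all genes, with 1300 genes higher and 603 lower, against 733 and 996 on the authors' scale).

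**Figure D1:**
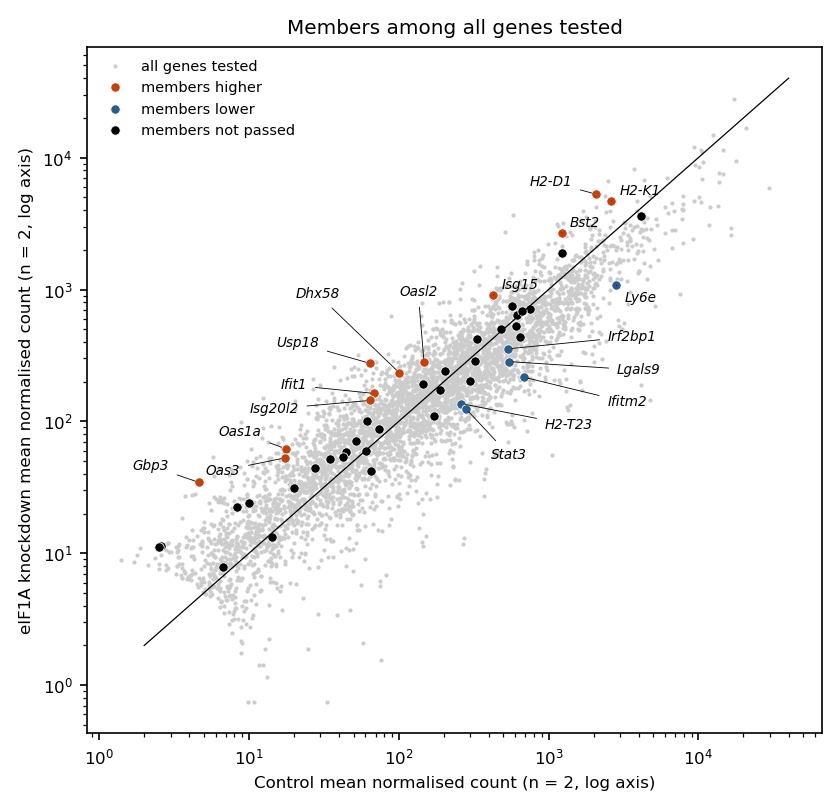
Mean normalised count in the eIF1A knockdown (vertical log axis) against the mean in the control (horizontal log axis), n = 2 libraries each, for all 4605 genes tested (grey) and the 50 members tested; the line marks equal values. The 12 members higher in the knockdown lie above the line across the whole range of levels, from Gbp3 to H2-D1, and the 6 lower members lie below it.

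Members together took 1.83% (exact 95% binomial interval 1.81 to 1.85%) and 1.65% (1.64 to 1.67%) of all reads in knockdown 1 and 2, against 1.13% (1.11 to 1.14%) and 1.12% (1.10 to 1.13%) in control 1 and 2. Reads of MARS-seq libraries are taken here as independent, so these intervals cover counting error only. H2-D1, H2-K1 and Tapbp were the most abundant part of that sum: without them the share was 1.00% and 0.850% in the knockdown libraries and 0.723% and 0.689% in the control libraries. In these shares, both knockdown libraries lay above both control libraries with and without these 3 genes. Shares put the libraries on equal totals, a scale on which the median log2 fold change of all genes was also raised (0.34). On the authors' scale the members' summed normalised counts were 31753 and 26384 in the knockdown, against 24244 and 23493 in the control. Without these 3 genes the sums on that scale overlapped, with knockdown 2 below both controls.

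Among interferon receptors and Janus kinases, none of the 5 members present passed the test (15.9% of all genes were higher and 21.6% lower). Ifnar2, the receptor chain for type I interferon with the most reads here, had normalised counts of 217 and 186 in the knockdown, against 333 and 262 in the control (log2 fold change -0.55, adjusted p = 0.0709). These groups did not overlap, and without control 2 the difference passed (log2 fold change -0.72, adjusted p = 0.0264). The partner chain Ifnar1 had 13.7 and 12.9 in the knockdown and 23.6 and 4.87 in the control, where the control libraries differed from each other more than from the knockdown (adjusted p = 0.792). Tyk2, the kinase bound to IFNAR1, had 45.2 and 38.7 in the knockdown, against 65.0 and 66.6 in the control (log2 fold change -0.64, adjusted p = 0.126). For the interferon gamma side, Ifngr1 had 56.5 and 47.5 in the knockdown and 38.4 and 30.8 in the control (adjusted p = 0.207). Jak2 had 4.84 and 10.9 in the knockdown, against 6.89 and 6.49 in the control (adjusted p = 0.916). With 6 to 24 reads per library, changes in Ifnar1 and Jak2 were not resolvable at this depth: their 95% intervals ran from -1.07 to 1.58 and from -1.32 to 1.55 on the log2 scale.

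The transcription factors that carry the signal showed 1 call among 7 members (15.9% of all genes were higher and 21.6% lower). Stat3, a STAT of cytokine and growth factor signalling that also dampens the type I interferon response, had normalised counts of 120.3 and 128 in the knockdown, against 291 and 271 in the control. Its libraries were tightly grouped, and it was lower by 2.25-fold (log2 fold change -1.17, SE 0.24, adjusted p = 0.000699). Stat2 had 250.2 and 229 in the knockdown and 234 and 174 in the control (adjusted p = 0.455). Irf9, which with STAT2 forms the DNA-binding complex of the type I response, had 651 and 629.7 in the knockdown and 684 and 547 in the control (adjusted p = 0.843). Both had overlapping groups. Irf3, the factor that acts downstream of nucleic acid sensors, had 549.7 and 459.9 in the knockdown, against 487 and 480.5 in the control (adjusted p = 0.869). Irf1, a transcription activator of MHC class I and other interferon gamma targets, had 304 and 266 in the knockdown, against 318 and 325 in the control (adjusted p = 0.572). For Irf9 and Irf3 the 95% intervals of the log2 difference were -0.38 to 0.51 and -0.39 to 0.50, which leaves room for changes of less than 1.5-fold in either direction. Irf2, a repressor that competes with IRF1, and Ifi35 also did not pass.

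Of 4 members in nucleic acid sensing, 1 was called (15.9% of all genes were higher and 21.6% lower). Dhx58 encodes LGP2, a helicase of the RIG-I family that modulates its signalling relatives and is itself interferon-stimulated. It had normalised counts of 224 and 242 in the knockdown, against 101 and 101 in the control. The groups were far apart relative to their spread, with a 2.29-fold higher level in the knockdown (log2 fold change 1.20, SE 0.24, adjusted p = 0.000771). Mavs, the mitochondrial adaptor of that pathway, had 102 and 119 in the knockdown and 193 and 149 in the control (log2 fold change -0.62, adjusted p = 0.0653). Ifi204, a DNA-sensing protein of the mouse, had 12.9 and 9.51 in the knockdown and 0.984 and 4.06 in the control (adjusted p = 0.0588). The ratio of its summed reads, scaled by the factors of the libraries, was 4.15 with a 95% counting interval of 1.70 to 12.2. That interval pools the reads of each group and leaves out the spread between libraries, so it is no test of the difference. Without control 2 both passed, Mavs at an adjusted p of 0.0272 and Ifi204 at 0.00816. Tlr2, a receptor for bacterial lipopeptides, did not pass (adjusted p = 0.486) and had overlapping groups.

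Antiviral effectors and ubiquitin-like modifiers were the largest role, with 19 of the 50 members tested: 7 were higher in the knockdown, 3 lower and 9 not called (15.9% of all genes were higher and 21.6% lower), with a median log2 fold change of 0.58. Usp18, the protease that strips ISG15 from its targets and restrains the interferon receptor, was the member of smallest p. Its normalised counts were 255 and 295 in the knockdown, against 59.1 and 69.8 in the control. Both knockdown libraries lay far above both control libraries, with a 4.23-fold higher level (log2 fold change 2.08, SE 0.26, adjusted p = 4.73e-06). Isg15, the ubiquitin-like modifier itself, had 1166 and 654 in the knockdown and 283 and 575 in the control. Knockdown 2 was close to control 2, and the 2.16-fold difference (log2 fold change 1.11, SE 0.30, adjusted p = 0.00619) no longer passed without knockdown 1 (log2 fold change 0.70, adjusted p = 0.0704) or without control 1 (0.60, adjusted p = 0.0640), and it did not pass in limma without a mean-variance trend (adjusted p = 0.111).

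The 3 oligoadenylate synthetase genes in the table were all called higher, as were 15.9% of all genes. OAS1 and OAS3 proteins sense double-stranded RNA and make the oligoadenylates that activate RNase L. Oas1a had normalised counts of 64.6 and 59.8 in the knockdown, against 19.7 and 15.4 in the control, a 3.43-fold difference with well separated groups (log2 fold change 1.78, SE 0.37, adjusted p = 0.00104). Of the 50-base words in the last 500 bases of its transcript, 56.1% also occur in transcripts of Oas1g, so its count is uncertain to that extent. Oas3 had 63.0 and 42.8 in the knockdown and 22.6 and 12.2 in the control, 3.0-fold higher in the knockdown (adjusted p = 0.00571), but it did not pass without knockdown 1 (adjusted p = 0.0962). Oasl2, an OAS-like protein with ubiquitin-like domains, had 267 and 292 in the knockdown, against 159 and 136 in the control. The groups were separated, with a 1.89-fold higher level in the knockdown (adjusted p = 0.00457), and the call was lost without knockdown 2 (adjusted p = 0.0516).

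Bst2 encodes tetherin, which holds budding virus particles at the cell surface. It had normalised counts of 3181 and 2180.4 in the knockdown, against 1247 and 1204 in the control, so that knockdown 1 was the highest library and the controls were alike. The level was 2.15-fold higher in the knockdown (log2 fold change 1.10, SE 0.23, adjusted p = 0.000828). Ifit1, which binds viral RNA with foreign 5′ ends, had 165 and 160.3 in the knockdown, against 48.2 and 89.3 in the control. It was 2.46-fold higher in the knockdown (log2 fold change 1.30, SE 0.30, adjusted p = 0.00218), and removing a trend on transcript GC content brought it to an adjusted p of 0.0554.

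The 3 effectors that were lower in the knockdown include abundant transcripts of membrane proteins. Ly6e, a GPI-anchored protein that restricts coronaviruses and aids entry of some other viruses, had normalised counts of 1436 and 713 in the knockdown, against 3033 and 2640.1 in the control. Although the knockdown libraries differed from each other, both lay below both controls, and the level was 2.79-fold lower (log2 fold change -1.48, SE 0.27, adjusted p = 0.000246). Ifitm2, whose protein blocks fusion of viruses in endosomes, had 258 and 175 in the knockdown and 684 and 685 in the control, 3.21-fold lower in the knockdown (log2 fold change -1.68, SE 0.23, adjusted p = 1.64e-05). For Ifitm2, 41.9% of the 50-base words near its 3′ end occur in other transcripts, and the predicted gene Gm45717 overlaps it on the same strand. Lgals9, a secreted galectin that binds surface glycans of immune cells, had 304 and 264 in the knockdown, against 519 and 564 in the control. Its groups were tight and apart, with a 1.90-fold lower level in the knockdown (log2 fold change -0.93, SE 0.22, adjusted p = 0.00235). All 3 kept their call in every other setting tried.

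**Figure D2:**
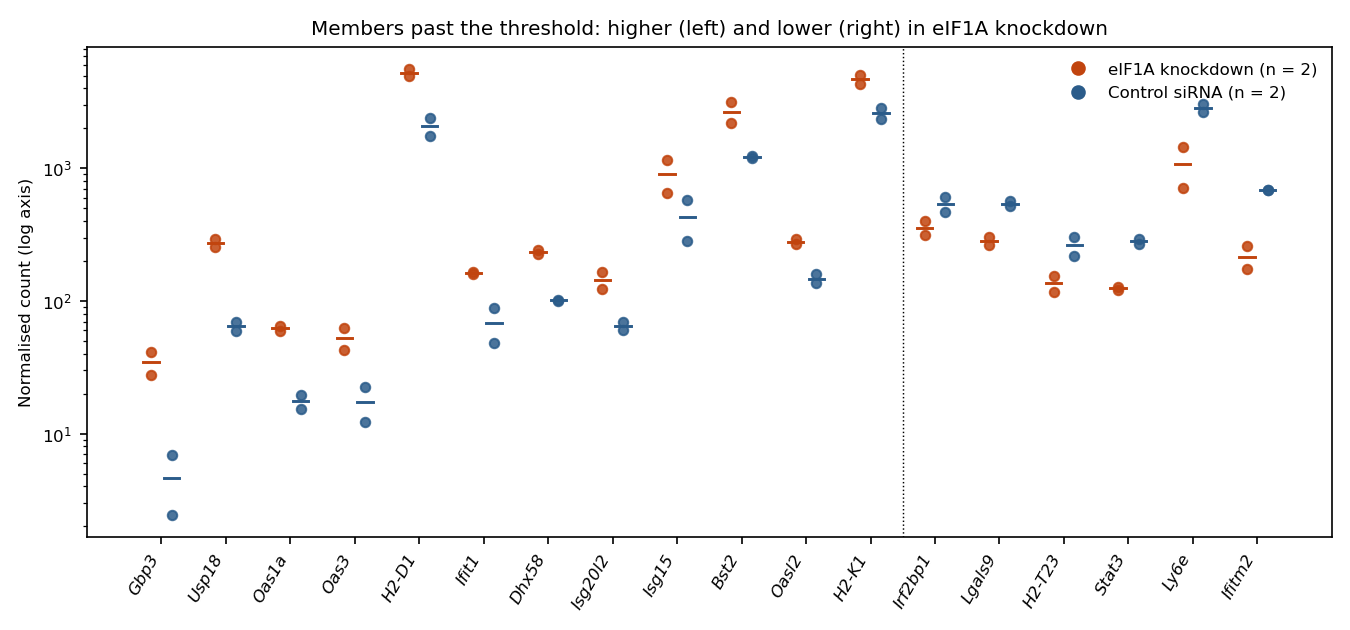
Normalised count in each library (log axis) of the 18 members past the threshold, eIF1A knockdown beside control siRNA (n = 2 libraries each), with bars at the group means; members higher in the knockdown are left of the dotted line and lower members right of it. In all 18 the knockdown pair is either wholly above or wholly below the control pair, which is no evidence apart from the calls themselves. The gap is narrowest relative to the spread for Isg15 and Irf2bp1.

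Of the effectors that did not pass, Ifi27 was the most abundant, with normalised counts of 2355 and 1435 in the knockdown and 1156 and 1295 in the control (log2 fold change 0.59, adjusted p = 0.0603). Knockdown 1 stood well above the other libraries, and the difference passed without knockdown 2 (adjusted p = 0.00757), without control 2 (0.0361) and in 5 further settings. Parp14, an ADP-ribosyltransferase, had 27.4 and 17.7 in the knockdown, against 11.8 and 4.87 in the control (log2 fold change 1.41, adjusted p = 0.0555), and it passed without control 1 (0.00725). Samhd1, which depletes the deoxynucleotides that reverse transcription needs, had 410.1 and 459.9 in the knockdown, against 771 and 523 in the control (log2 fold change -0.55, adjusted p = 0.0680), and it passed without control 2 (0.00542). Adar, the editor of double-stranded RNA, had 195 and 186 in the knockdown and 146 and 144 in the control (adjusted p = 0.210). Parp9, Parp10, Rtp4, Shisa5 and Lgals3bp had log2 fold changes from -0.22 to 0.58 and adjusted p from 0.327 to 0.904. Ifi44, with 1 to 8 reads per library, was under the filter and was not tested. The ratio of its scaled reads, knockdown over control, was 2.16 with a counting interval of 0.721 to 7.73.

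Of the interferon-induced GTPases, which take part in defence against intracellular pathogens, 1 of 4 members was called. Of all genes, 15.9% were higher and 21.6% lower. Gbp3, a guanylate-binding protein, had normalised counts of 27.4 and 41.4 in the knockdown, against 6.89 and 2.43 in the control. It is described although its mean lies under the 20 required of the other called members. Its control mean was 4.66, so it passed the filter only through its knockdown counts. The groups were far apart on a low count: 34 and 61 reads in the knockdown libraries and 7 and 3 in the control libraries. It was 6.67-fold higher in the knockdown (log2 fold change 2.74, SE 0.58, adjusted p = 0.00101), and the ratio of scaled reads was 7.88 with a counting interval of 4.10 to 17.0. Leaving out 1 library at a time kept the call and moved the fold between 4.40 (without control 2) and 10.1 (without control 1). The immunity-related GTPases, cousins of the guanylate-binding proteins, were not called. Igtp had 181 and 163 in the knockdown, against 220.5 and 157 in the control (adjusted p = 0.761), and Irgm1 and Irgm2, with overlapping groups as well, had adjusted p of 0.881 and 0.157. Irgm2 passed without control 1 (adjusted p = 0.00692). The printed stretches of Igtp and Irgm2 hold the same 10-base element, and that of Gbp3 holds 2 overlapping matches on the opposite strand.

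Of the 8 members of MHC and antigen processing, 2 were higher in the knockdown, 1 was lower and 5 did not pass (15.9% of all genes were higher and 21.6% lower). The genes called, all on chromosome 17 (mm10, GENCODE M21), were both classical class I heavy chains, which were higher, and a non-classical one, which was lower. Class I molecules carry peptides of the cell's own proteins to its surface, where cytotoxic T cells inspect them. H2-D1 (chr17:35262730-35267499, plus strand) had normalised counts of 5580.4 and 4974 in the knockdown, against 1745 and 2415 in the control. Both knockdown libraries lay above both controls by more than the spread of either pair, and the level was 2.57-fold higher (log2 fold change 1.36, SE 0.23, adjusted p = 0.000147). H2-K1 (chr17:33996017-34000347, minus strand) had 5019 and 4336 in the knockdown and 2374 and 2867 in the control. The groups were separated, with a 1.79-fold higher level in the knockdown (log2 fold change 0.84, SE 0.22, adjusted p = 0.00636), but without control 1 the log2 fold change was 0.70 and the adjusted p 0.0802. It also did not pass in limma without a mean-variance trend (adjusted p = 0.0539).

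H2-T23 (chr17:36029773-36032855, minus strand) encodes Qa-1, a non-classical molecule that presents leader peptides of other class I chains to natural killer cells. It had normalised counts of 155 and 118 in the knockdown, against 218 and 306 in the control, 1.91-fold lower in the knockdown (log2 fold change -0.93, SE 0.26, adjusted p = 0.00729). This call was lost without knockdown 2 (adjusted p = 0.0910), without control 2 (0.0525), at equal totals (0.0664), without the trend (0.0608) and with the GC trend removed (0.0881), and 38.1% of the 50-base words near its 3′ end occur in other transcripts. H2-Q4 (chr17:35379617-35385290, plus strand), another non-classical gene, had 27.4 and 21.1 in the knockdown, against 7.87 and 12.2 in the control. It did not pass (log2 fold change 1.21, adjusted p = 0.0649), and it passed without control 2 (adjusted p = 0.0294). For H2-Q4 33.7% of those words are shared with other genes, against 9.53% for H2-D1 and 0.444% for H2-K1.

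Genes that load class I molecules did not pass the test. Tap1 (chr17:34187553-34197225, plus strand), a subunit of the transporter that brings peptides into the endoplasmic reticulum, had normalised counts of 448 and 389.9 in the knockdown and 357 and 307 in the control. Its groups did not overlap (log2 fold change 0.34, adjusted p = 0.25), and it passed at equal totals, under quantile normalization and with the GC trend removed. Tapbp (chr17:33915899-33929292, plus strand), the tapasin that bridges that transporter and class I chains, had 3763 and 3495 in the knockdown, against 4583 and 3689 in the control (log2 fold change -0.18, adjusted p = 0.569). The sign of this difference turned at equal totals, under quantile normalization and with the GC trend removed. Tapbpl, a tapasin-related peptide editor, had 103 and 97.8 in the knockdown and 65.9 and 56.8 in the control (log2 fold change 0.70, adjusted p = 0.0611). Erap1, the aminopeptidase that trims peptides to fit class I grooves, had 11.3 and 11.5 in the knockdown, against 1.97 and 3.25 in the control (adjusted p = 0.0583), and the ratio of its scaled reads was 4.29 with a counting interval of 1.76 to 12.6. Both had separated groups, and Erap1 passed without control 2 (adjusted p = 0.0290).

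**Figure D3:**
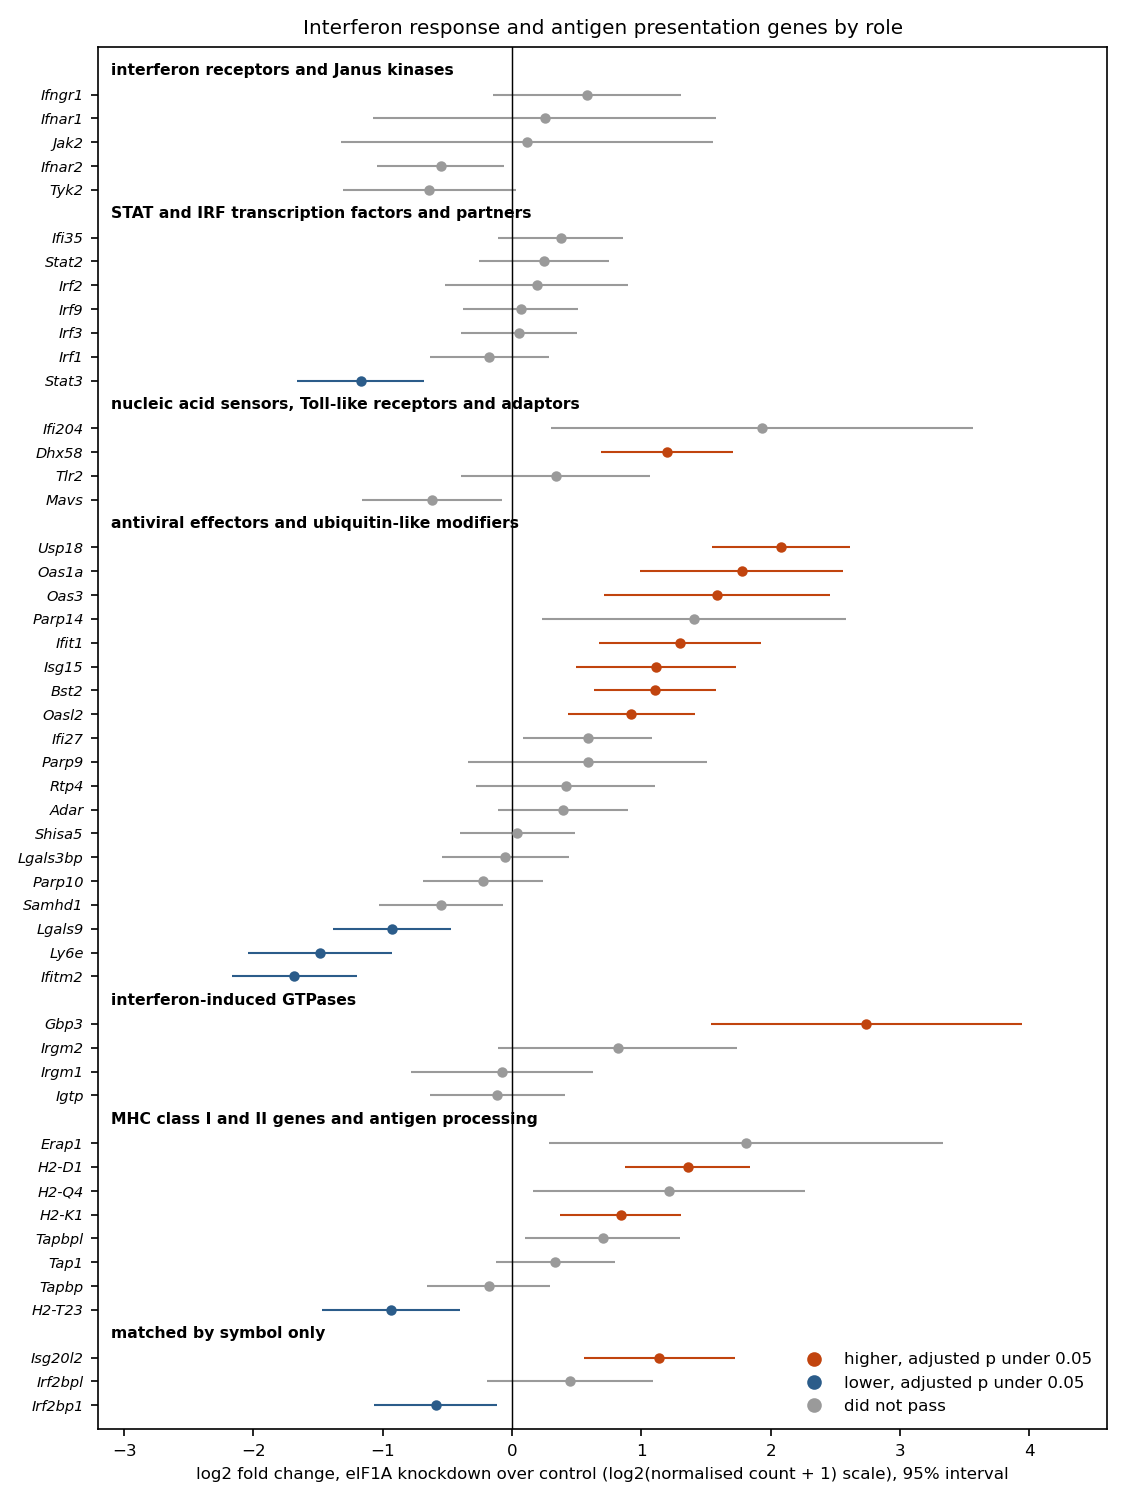
Log2 fold change of each of the 50 members tested, eIF1A knockdown over control on the log2(normalised count + 1) scale, with limma's 95% interval, grouped by role. Called members are coloured: receptors and kinases hold none, effectors hold both directions, and Stat3 is the one called transcription factor.

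The 3 genes taken in by symbol alone moved in different directions. Isg20l2, an exonuclease of ribosomal RNA processing related to Isg20, had normalised counts of 124 and 165 in the knockdown, against 68.9 and 60.1 in the control. It was 2.20-fold higher in the knockdown (log2 fold change 1.14, SE 0.28, adjusted p = 0.00343), and it did not pass without knockdown 2 (adjusted p = 0.0787). Irf2bp1, a corepressor named for its binding to IRF2, had 312 and 397 in the knockdown and 604 and 467 in the control, 1.51-fold lower in the knockdown (log2 fold change -0.59, SE 0.23, adjusted p = 0.0471). That call did not pass in 11 other settings, among them without knockdown 1 (adjusted p = 0.318), without knockdown 2 (0.0510) and without control 1 (0.236), and with the GC trend removed its sign turned (log2 fold change 0.34). Irf2bpl did not pass (adjusted p = 0.271).

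Across the called members, 6 that were higher (Usp18, Bst2, Dhx58, Gbp3, H2-D1 and Oas1a) kept their call in each of the 16 other settings in which they were tested. So did 4 that were lower (Ly6e, Ifitm2, Stat3 and Lgals9). Gbp3 was not tested with the filter at a mean of 20, and it passed the main filter only through its knockdown counts. The share of all called genes that kept their call was not examined. Just outside the threshold stood 9 members with adjusted p from 0.0555 to 0.0709, 6 of them with positive fold changes, and every one of the 9 passed in at least 1 other setting. The knockdown libraries had no fixed order among called members. Knockdown 1 was the higher of the pair in 7 of the 12 higher members and in 4 of the 6 lower ones.

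Genes of the same pathways that the symbols did not take in were called in both directions, as genes of the whole table were. Of 161 genes on 5 lists, 61 were in the table and 59 were tested: 17 were higher in the knockdown (28.8%, against 15.9% of all genes) and 7 lower (11.9%, against 21.6% of all genes), with a median log2 fold change of 0.12. Most of these 17 higher calls were lost when either knockdown library was left out, and the number of higher calls over all genes fell too. The list of other interferon-stimulated genes held 14 of the higher calls and 2 of the lower ones among 32 tested, with a median of 0.56. Ccl2, a chemokine for monocytes, averaged 73.0 ± 5.23 in the knockdown and 16.8 ± 8.41 in the control (SD, n = 2 libraries each, log2 fold change 2.14, adjusted p = 0.000368 in limma). Csf1, the macrophage growth factor, averaged 705 ± 23.8 in the knockdown and 317 ± 25.4 in the control (log2 fold change 1.15, adjusted p = 0.000317 in limma). Both genes kept their call in every other setting. Cnp, a phosphodiesterase, was lower in the knockdown, at 208 ± 16.9, against 945 ± 158 in the control (log2 fold change -2.17, adjusted p = 4.45e-07 in limma), and it too kept its call. The other genes called higher on this list were Mitd1, Pnpt1, Lgals8, C3, Plscr1, Wars, Mlkl, Tdrd7, Apol9a, Trim26, Lap3 and Cd47, with log2 fold changes from 0.59 to 2.03, and of these Mlkl alone kept its call in every other setting. Trafd1 was the other one called lower, and its call was lost without knockdown 1 (adjusted p = 0.0549), without knockdown 2 (0.210) and in 5 further settings.

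The negative regulators of JAK-STAT signalling had 1 higher and 2 lower calls among 6 tested (15.9% of all genes were higher and 21.6% lower). Pias3, an inhibitor of STAT3, averaged 169 ± 2.28 in the knockdown and 347 ± 87.4 in the control (log2 fold change -1.01, adjusted p = 0.00274 in limma). Socs3, a target of STAT3 that shuts off its receptors, averaged 136 ± 15.0 in the knockdown and 244 ± 4.81 in the control (log2 fold change -0.84, adjusted p = 0.00955 in limma). Stat3 and both of these genes were thus lower in the knockdown, although Socs3 did not pass without knockdown 2 (adjusted p = 0.0994), at equal totals or with the GC trend removed. Ptpn2, a phosphatase that acts on JAK1, averaged 37.5 ± 4.04 in the knockdown, against 13.6 ± 3.10 in the control (log2 fold change 1.42, adjusted p = 0.0148 in limma), a call that was lost without knockdown 1 (adjusted p = 0.131), without knockdown 2 (0.0630) and with the GC trend removed.

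Among 11 sensing and signalling genes tested, 1 was called higher and 1 lower (15.9% of all genes were higher and 21.6% lower). Mb21d1, which encodes the DNA sensor cGAS, averaged 52.3 ± 0.933 in the knockdown and 20.9 ± 0.307 in the control (log2 fold change 1.28, adjusted p = 0.0103 in limma). It did not pass without knockdown 1 (adjusted p = 0.0696), without knockdown 2 (0.0794) or with the GC trend removed. Unc93b1, the chaperone of endosomal Toll-like receptors, averaged 21.9 ± 2.14 in the knockdown, against 57.0 ± 19.3 in the control (log2 fold change -1.30, adjusted p = 0.0114 in limma), and it did not pass without knockdown 2 (adjusted p = 0.0554), without control 2 (0.113), at equal totals or with the GC trend removed. Of the 3 immunoproteasome and proteasome activator genes in the table, Psme1 was called lower (log2 fold change -0.63, adjusted p = 0.0496 in limma), a call lost in 11 other settings, and none was called higher.

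General peptide loading and MHC regulators had 1 call in each direction among 7 tested (15.9% of all genes were higher and 21.6% lower). Hspa5, the chaperone BiP of the endoplasmic reticulum, averaged 1024 ± 553 in the knockdown, against 491 ± 20 in the control, and the spread between its knockdown libraries was wide. Its log2 fold change was 0.94 (adjusted p = 0.0119 in limma), and without knockdown 2 the adjusted p was 0.414. It also did not pass without the mean-variance trend or with the GC trend removed. Cd74, the invariant chain of MHC class II and a marker of antigen-presenting leukocytes, averaged 26.8 ± 3.26 in the knockdown, against 97.2 ± 36.5 in the control (log2 fold change -1.78, adjusted p = 0.000553 in limma). The single leukocyte marker in the table was therefore lower in the knockdown while H2-D1 and H2-K1 were higher, and its part in the members' results was not tested, nor was that of the lower fibroblast markers.

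**Figure D4:**
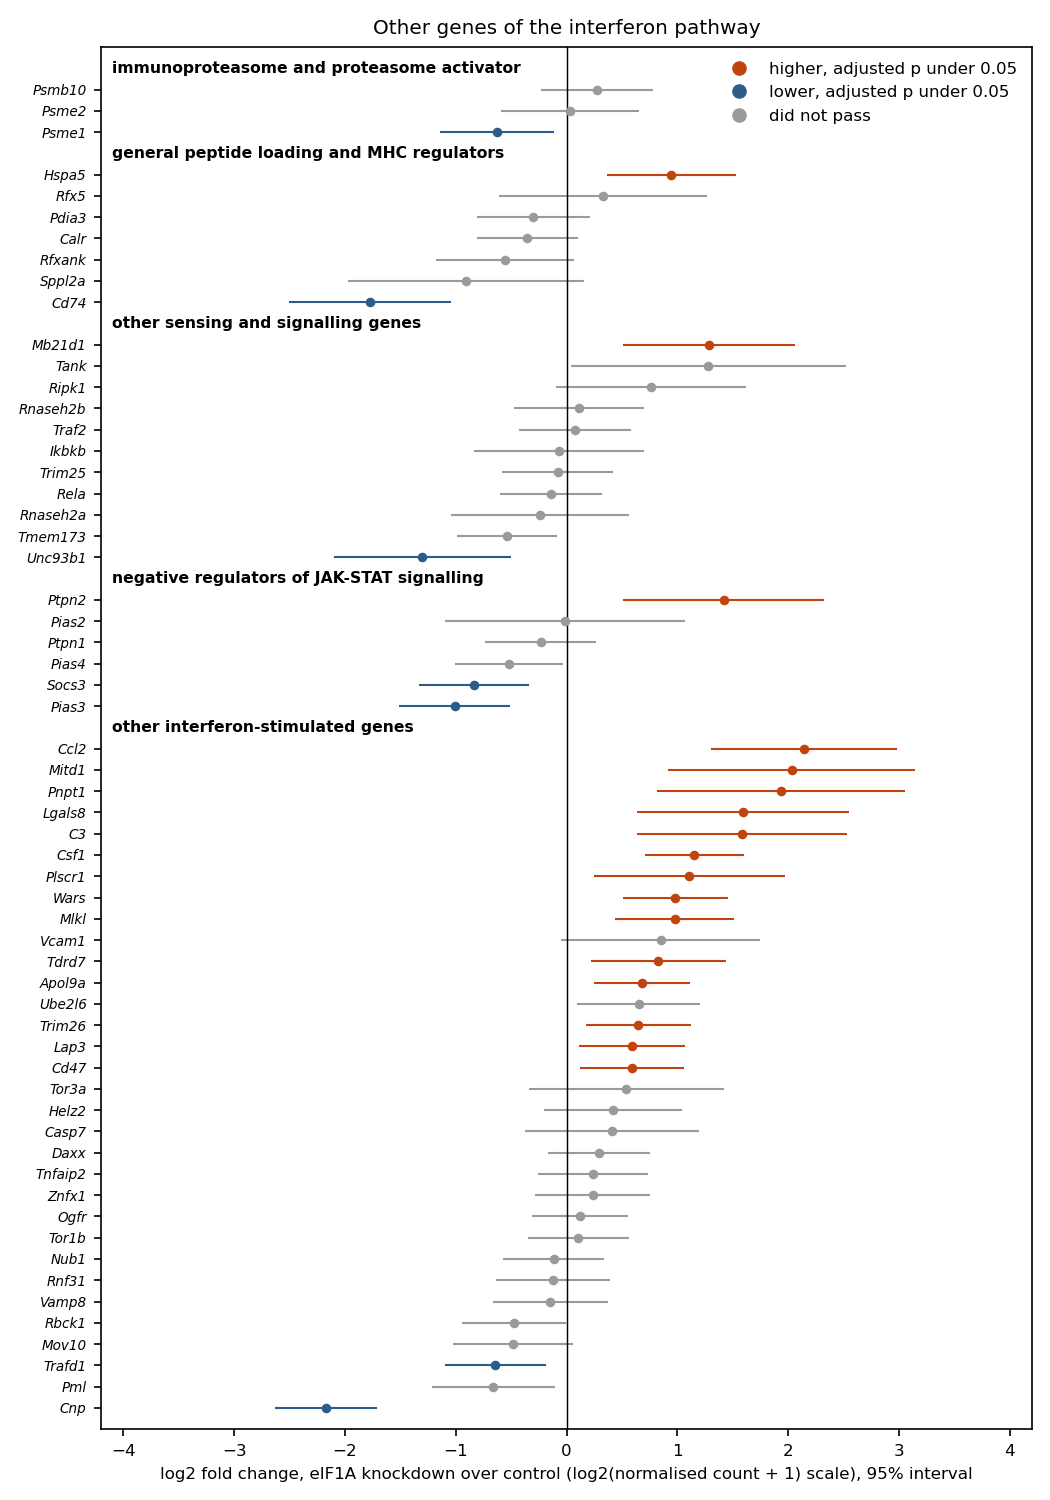
Log2 fold change of the 59 tested pathway genes whose symbols the member rule does not take in, eIF1A knockdown over control on the log2(normalised count + 1) scale, with limma's 95% interval, grouped by list. The other interferon-stimulated genes hold 14 of the 17 higher calls, and Cnp lies farthest to the left.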

How the data were processed

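Bulk MARS-seq of 4 libraries (2 eIF1A knockdown, 2 control) was analysed from the authors' deposited table of normalised counts, a signal per gene. Per the submitters' processing notes, which give no roles or order, the tools were HTSeq, STAR, DESeq2, cutadapt 1.8.3 and bcl2fastq 2.17.1.14 and the build was mm10. No source used here gives the scaling factors, strand use or handling of PCR duplicates. Each column's values were whole multiples of 1 step (100% within 0.01 read), so reads could be recovered.

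Groups came from the sample titles. The main test was limma 3.58.1 (R 4.3.3) on log2(value + 1), fitted with a trend of variance on mean, on genes with a mean of at least 5 (4605 tested, 273 under the filter), with Benjamini-Hochberg adjustment over all of them and a threshold of 0.05. It had no replicate block. edgeR 4.0.16 and DESeq2 1.42.0 were run on recovered reads as alternatives. The test was checked on simulated data. Counting intervals are exact (Clopper-Pearson, 95%). They cover counting error only. Those of single genes pool the reads of each group and leave out the spread between libraries, so they do not test a difference.

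The members and lists were chosen with earlier results of these data known. Members named with every library's value were those past the threshold with a mean of at least 20, the most abundant member of each role and the core pathway genes; Gbp3, the members just outside the threshold and a few others (Tlr2 and Adar among them) were added after their values were seen. Outside genes were up to 3 of smallest p per list. Symbols were matched to GENCODE M21 (4873 of 4878, all 51 members). Exact 50-base words of the last 500 transcript bases shared with other genes marked uncertain counts, and genes that overlap on the opposite strand (Stat3 with Stat5a, Adar with Chrnb2, Erap1 with Cast) or on the same strand (Parp10 with Plec) are uncertain likewise. Promoter windows came from RefSeq (GRCm38.p6).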

Additional observations from a re-analysis of the deposited data

How the results depend on the processing

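Results were recomputed with other pseudocounts (0.5 and 5), with filters at a mean of 20 or none, with TMM, equal-total and quantile scaling, with the replicate block, with limma without trend, with edgeR and DESeq2, without each library and, chosen after seeing the data, removal of a loess trend on GC content; a left-out library leaves 1 sample assumed to vary like the other group. Titles number the libraries 1 and 2 in both groups, but same-numbered libraries did not deviate together (correlation -0.13) and no label pairs them; with the replicate block 641 genes were higher and 918 lower, and 12 and 5 members, Irf2bp1 being lost (adjusted p = 0.0673). Higher calls over all genes numbered 1300 at equal totals and 438 to 758 without 1 library; lower calls numbered 603 at equal totals, 655 without trend and 663 without the GC trend. Members higher numbered 23 at equal totals. Outside genes higher numbered 6 to 17 without 1 library; lower ones 3 at equal totals, 4 without the GC trend and 3 to 10 without 1 library. edgeR called 807 genes higher and 909 lower, DESeq2 620 and 828. The members' median was 0.42 with TMM, 0.71 at equal totals, 0.43 with edgeR, 0.41 with DESeq2 and 0.31 to 0.43 without 1 library.

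Log2 fold changes that turned sign were, at equal totals, Igtp 0.24, Irf1 0.18, Irgm1 0.27, Lgals3bp 0.30, Parp10 0.13 and Tapbp 0.17; under quantile normalization, Ifnar1 -0.0022, Igtp 0.0058, Irf1 0.043, Jak2 -0.087, Lgals3bp 0.31, Parp10 0.084 and Tapbp 0.29; with the GC trend removed, Irf2 -0.19, Irf2bp1 0.34, Jak2 -0.32, Lgals3bp 0.37, Parp10 0.36 and Tapbp 0.34; with DESeq2, Ifnar1 -0.022 and Irgm1 0.022; with edgeR, Irgm1 0.047; with TMM, Lgals3bp 0.012. Without 1 library the values ranged between -0.78 and 1.29 for Ifnar1, -0.36 and 0.13 for Igtp, -0.27 and 0.65 for Irf2, -0.073 and 0.18 for Irf3, -0.10 and 0.23 for Irf9, -0.49 and 0.34 for Irgm1, -0.40 and 0.63 for Jak2, -0.39 and 0.28 for Lgals3bp, -0.47 and 0.018 for Parp10 and -0.12 and 0.20 for Shisa5. Of these only Irf2bp1 was a called member. The cause was not tested. Members under about 20 reads are limited by depth.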
